A study of Mus musculus with 12 samples.

Results

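The multicopy genes of the 2-cell-like state were taken as every gene of the tables whose name starts with Zscan4, Tcstv, Usp17l, Tdpoz or Eif1ad, together with the single genes Zfp352, Tmem92, Arg2 and Eif4a3l1. This gave 43 of 41079 gene IDs, with 5 Zscan4, 10 Tcstv, 5 Usp17l, 8 Tdpoz and 11 Eif1ad genes, and no filter on expression was used to choose them. The series measured RNA in mouse embryonic stem cells, pluripotent cells derived from the blastocyst, with 12 libraries read from both ends. Wild-type cells without treatment, wild-type cells with etoposide, cells labelled Bod1L KO with tamoxifen, and the same KO cells with tamoxifen and etoposide each gave 3 libraries, numbered as biological replicates. Etoposide is a topoisomerase II poison that leaves double-strand breaks in DNA, and Bod1l encodes a subunit of the SETD1A histone methyltransferase complex named in the series title. Tamoxifen is named for the knockout groups and for neither wild-type group, so knockout and tamoxifen cannot be told apart in any comparison of genotypes. Doses, times, the line of cells, the deleted part of Bod1l and the culture conditions are not given in the sources used here.

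A small fraction of mouse embryonic stem cells passes for a time into a state in which transcripts of the cleaving embryo at the 2-cell stage appear. The transcription factor Dux, itself under the control of Dppa2 and Dppa4, switches on many of these genes, along with MERVL retroviral elements. Much of the programme consists of gene families whose copies lie in clusters: Zscan4 genes encode SCAN-domain zinc finger proteins known for their part in telomere maintenance, Tcstv genes encode small proteins named for variable expression at the 2-cell stage, Usp17l genes encode deubiquitinating enzymes, Tdpoz genes encode proteins with a TRAF domain and a POZ domain, and the numbered Eif1ad genes encode relatives of a translation initiation factor. Because copies within a family are alike in sequence, a read can match several of them, and the level of a single copy is less certain than the family total.

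The promoter windows of 4 Zscan4 genes and 2 Usp17l genes are shown first, as examples of windows with long shared runs. They are not the only ones: Usp17lc and Usp17ld also share a long run, not marked here, and so do Tdpoz5 and Tdpoz7. The Usp17lc and Usp17ld windows were 83.5% identical, against 76.1% for Usp17la and Usp17lb. Those of Tdpoz5 and Tdpoz7 were 99.7% identical, the most alike pair of windows within a family, and neither gene passed the test between genotypes. A rise in the knockout does not set the copies shown apart, since most members rose. They come from RefSeq (GRCm38.p6), each with 250 bases before and 50 after the annotated start, and 17 of the 43 genes had at least 1 window (18 windows in all). The tables of expression are on GRCm39, so these coordinates belong to the other build. Zscan4b lies at chr7:10905001-10905300 (minus strand), Zscan4c at chr7:11005495-11005794 (plus strand), Zscan4d at chr7:11166099-11166398 (minus strand), Zscan4f at chr7:11397665-11397964 (plus strand), Usp17la at chr7:104856766-104857065 (plus strand) and Usp17lb at chr7:104842534-104842833 (minus strand). Capitals mark the longest run of bases common to the Zscan4 windows, and in the Usp17l windows the longest run common to that pair.
Zscan4b: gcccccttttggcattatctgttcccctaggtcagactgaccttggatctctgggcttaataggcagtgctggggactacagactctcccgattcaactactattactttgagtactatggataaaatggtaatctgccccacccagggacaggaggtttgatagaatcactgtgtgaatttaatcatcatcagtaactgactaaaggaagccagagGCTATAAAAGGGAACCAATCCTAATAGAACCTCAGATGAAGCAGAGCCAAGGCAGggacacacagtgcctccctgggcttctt
Zscan4c: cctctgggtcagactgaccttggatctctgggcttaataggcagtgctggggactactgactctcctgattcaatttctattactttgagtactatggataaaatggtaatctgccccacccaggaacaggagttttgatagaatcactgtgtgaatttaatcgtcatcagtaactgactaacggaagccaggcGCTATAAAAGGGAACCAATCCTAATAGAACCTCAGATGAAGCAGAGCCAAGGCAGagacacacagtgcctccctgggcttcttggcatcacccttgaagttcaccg
Zscan4d: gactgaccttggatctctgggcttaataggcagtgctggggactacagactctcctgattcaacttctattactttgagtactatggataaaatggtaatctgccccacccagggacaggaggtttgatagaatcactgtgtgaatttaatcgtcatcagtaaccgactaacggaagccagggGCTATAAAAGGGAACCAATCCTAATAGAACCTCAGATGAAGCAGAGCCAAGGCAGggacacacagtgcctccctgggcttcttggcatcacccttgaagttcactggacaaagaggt
Zscan4f: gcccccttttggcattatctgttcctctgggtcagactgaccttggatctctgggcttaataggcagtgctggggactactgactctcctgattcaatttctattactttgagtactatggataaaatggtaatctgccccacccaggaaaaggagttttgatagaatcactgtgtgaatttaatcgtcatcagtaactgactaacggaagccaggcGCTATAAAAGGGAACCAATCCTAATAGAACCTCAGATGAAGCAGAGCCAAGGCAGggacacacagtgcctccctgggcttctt
Usp17la: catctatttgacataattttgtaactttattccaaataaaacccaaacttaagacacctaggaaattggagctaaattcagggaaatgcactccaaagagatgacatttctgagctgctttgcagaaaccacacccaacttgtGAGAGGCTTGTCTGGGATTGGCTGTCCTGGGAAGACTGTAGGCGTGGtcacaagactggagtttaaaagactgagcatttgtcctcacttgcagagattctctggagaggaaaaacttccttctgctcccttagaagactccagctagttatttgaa
Usp17lb: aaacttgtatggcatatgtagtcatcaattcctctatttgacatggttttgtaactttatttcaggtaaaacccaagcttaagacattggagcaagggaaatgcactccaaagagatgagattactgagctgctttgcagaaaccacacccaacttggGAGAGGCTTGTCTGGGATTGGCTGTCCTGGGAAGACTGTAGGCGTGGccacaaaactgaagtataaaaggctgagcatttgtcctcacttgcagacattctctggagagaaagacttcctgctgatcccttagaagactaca

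The run shared by the Zscan4 windows is 55 bases long and was found in 4 of the 32851 windows of the table, those 4 alone. It begins 33 bases before the annotated start in Zscan4b and Zscan4f, 56 before it in Zscan4c and 67 before it in Zscan4d. The run contains TATAAA, the core of a TATA box, the promoter element bound by the TATA-binding protein. TATAAA on either strand was present in 7 of the 18 windows, those of Zscan4b, Zscan4c, Zscan4d, Zscan4f, Usp17lb, Usp17lc and Usp17ld, against 13.6% of all windows. The 4 Zscan4 hits are the TATAAA of the shared run, and windows of related copies are not independent, so the 2 shares cannot be weighed against each other. Counted from the annotated start, TATAAA began at −31 in Zscan4b, Zscan4f and Usp17lb. It began at −54 in Zscan4c, −65 in Zscan4d, −88 in Usp17lc and −110 in Usp17ld. The Usp17la and Usp17lb run is 47 bases long, begins 107 and 92 bases before the start, and occurs without a mismatch in 2 windows. The Usp17lc and Usp17ld windows hold the same stretch with a few bases changed, so it is not particular to that pair. The searches for TATAAA and for shared runs were added after the windows had been looked at. The binding motif of Dux was in 0 of the 18 windows on either strand (0.0335% of all windows), and the Zscan4 motif TGCACAC in 0 of 18 (4.40% of all windows). At so low a share a Dux hit in 18 windows was unlikely in any case. The windows are also short and include no Tcstv and no numbered Eif1ad gene, so the search cannot show whether members lack Dux sites. Neither the Dux motif nor the Zscan4 motif contains TATAAA. The expression tables hold a single value per gene, so they do not show from which start the RNA came.

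Whole windows of the Zscan4 promoters were 77.5% to 95.7% identical in pairs, with Zscan4b and Zscan4f the closest Zscan4 pair. The range was 54.4% to 83.5% for Usp17l windows and 47.8% to 99.7% for Tdpoz windows. In 20 members with a GENCODE M21 transcript, Zscan4 transcripts were 75.7% to 97.9% identical in pairs, Usp17l transcripts 53.6% to 81.0% and Tdpoz transcripts 37.3% to 80.4%. Of the stretches of 100 bases in the Zscan4f transcript, 75% also occurred in another member, against 62.8% for Zscan4c, 35.8% for Zscan4a, 27.7% for Zscan4d and 25.8% for Zscan4b. The shares were 39.5% for Usp17ld, 32.3% for Usp17lc, 10.3% for Usp17lb, 5.82% for Usp17le, 3.32% for Usp17la and 0 for each of the 5 Tdpoz genes matched. Fragments of that length from any of the 5 Zscan4 and 5 Usp17l transcripts, Zscan4d and Zscan4a included, therefore could not always be placed on 1 copy. How the counting treated reads with several matches is not given in the sources used here. The numbered Eif1ad genes, the Tcstv genes other than Tcstv3, Tdpoz7, Tdpoz8, Tdpoz9 and Eif4a3l1 were not matched. The shares cover matched genes only, so the 0 of the Tdpoz genes does not show that their fragments could always be placed. The promoter window of Tdpoz7, left out for that reason, was 99.7% identical to that of Tdpoz5.

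Each family lies in 1 stretch of a chromosome, Eif1ad itself aside, with other genes inside the stretch. There are 3 of these for Zscan4, 13 for Tcstv, 87 for Usp17l, 11 for Tdpoz and 12 for the numbered Eif1ad copies. In GRCm39 the Zscan4 genes span 608 kb of chromosome 7 from 10528168 to 11136245, and the Usp17l genes 1613 kb of the same chromosome from 102899293 to 104511874. The Tcstv genes span 490 kb of chromosome 13 from 120289497 to 120779797, the Tdpoz genes 1004 kb of chromosome 3 from 92976130 to 93979951, and the 10 numbered Eif1ad genes 727 kb of chromosome 12 from 87561086 to 88288532. Eif1ad itself stands alone on chromosome 19, from 5416841 to 5421546.

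Depth, estimated from coverage and FPKM, ran from 5.23 to 7.76 gigabases of aligned sequence per library, and the correlation of replicates over genes, which are not independent points, was r = 0.997 to 0.998. Bod1l, the targeted gene, stood at 48.5 to 50.6 TPM in untreated wild type and 11.2 to 12 in the untreated knockout, and at 46.5 to 51.1 and 11.7 to 13 in the treated groups. Of 12 pluripotency markers, 11 were in the tables and every one of them exceeded 100 TPM in every library, with Pou5f1 at group means of 1284 to 1511 TPM. Of 10 markers of feeder fibroblasts, 6 were below 1 TPM in every library, and their summed level was 10.7 to 13.0 TPM in all groups. No feeder marker was listed at 0 in every library.

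The first comparison asked how the families differed between untreated knockout and untreated wild type. The totals of Zscan4, Tcstv, Usp17l, Tdpoz and the numbered Eif1ad copies were 8.05 to 12.4 times higher in the knockout, and the 4 single genes were higher too. Eif1ad itself did not pass the test, and with it included the Eif1ad total was 1.57 times higher. Summed over the 42 members other than Eif1ad, expression was 22.7 ± 1.15 TPM in wild type and 205 ± 14.9 in the knockout (± SD, n = 3 libraries per group), a ratio of 9.02 ± 0.801 (± SD carried over from both groups). TPM values take gene length into account and sum to the same total in every library. In bulk RNA, more cells in the state and more RNA per cell in the state cannot be told apart.

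Of the 43 genes, 35 had every untreated knockout library above every untreated wild-type library and 0 had the reverse, while 20.9% of all 27304 genes with a value above 0 lay that way (14.8% in reverse). In the test over all those genes, limma on log2(TPM + 1) with Benjamini-Hochberg adjustment, 34 of the 43 rose at an adjusted p under 0.05 and 0 fell, where 14.5% of all genes rose and 10.9% fell. With the filter used for the values below, a mean of at least 1 TPM over the 12 libraries, 28 members were tested, of which 27 rose and 0 fell, against 28.1% and 21.5% of 14107 genes. Members that are low in wild type passed that filter through the knockout libraries, so the count over the 28 is not independent of the difference. The median difference of the 28 was 1.85 on the log2(TPM + 1) scale, beside 0.04 for all genes tested. On that scale the change of a gene at low TPM comes out too small, and the p-values rest on how far apart the 3 libraries of a group lie, which the labels number as biological replicates without saying what was kept separate.

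**Figure D1:**
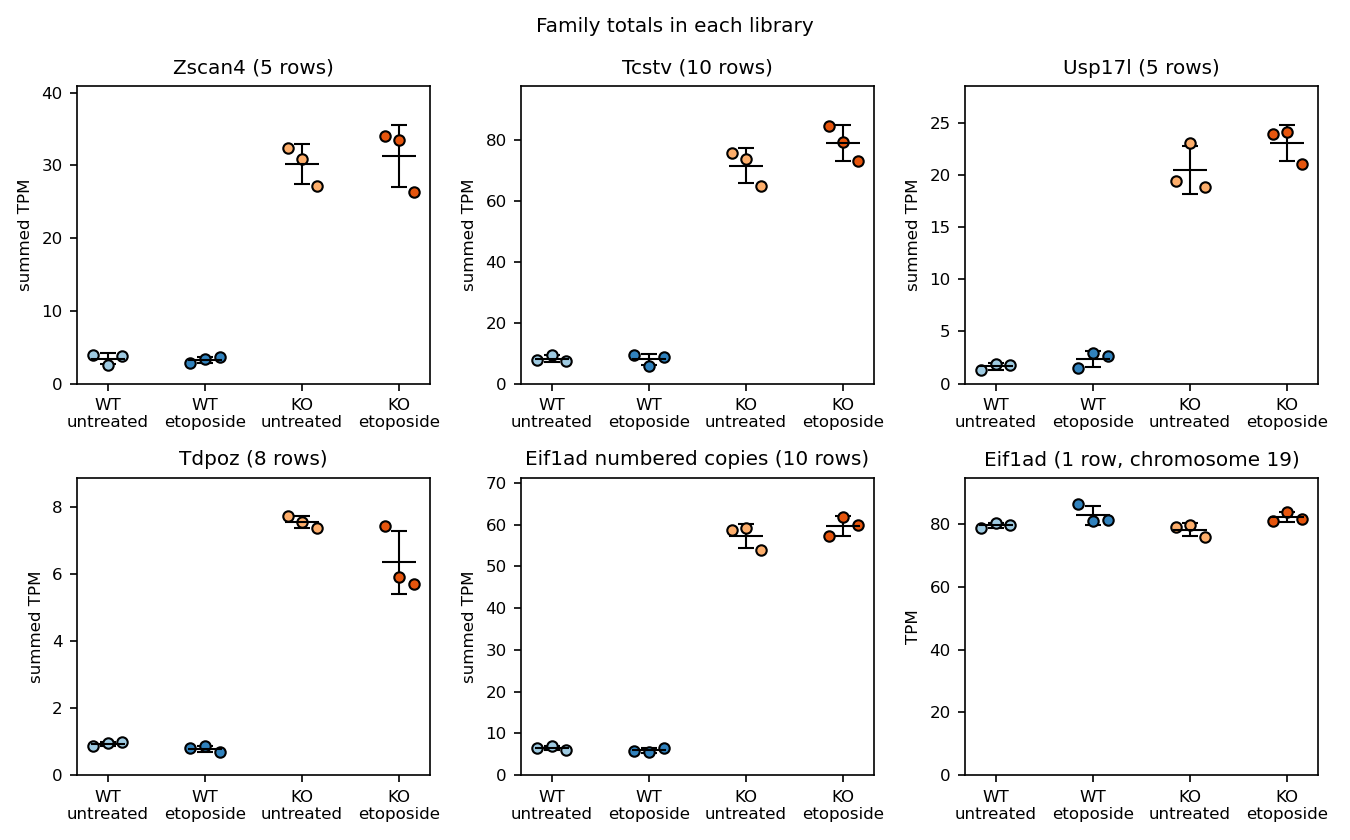
Summed TPM per library (points), with mean and SD (bars) of 3 libraries, for 4 families, the numbered Eif1ad copies and Eif1ad itself, by group. Every knockout library lies above every wild-type library in the first 5 panels, while Eif1ad stays between 75.9 and 86.4 TPM in all 12 libraries.

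The Zscan4 total was 3.87, 2.51 and 3.75 TPM in wild type, 2.85, 3.37 and 3.66 in wild type with etoposide, 32.5, 30.9 and 27.2 in the knockout and 34, 33.5 and 26.4 in the knockout with etoposide. The genotypes did not overlap with or without etoposide, and the knockout total was 8.93 ± 2.15 times that of wild type in untreated cells. Zscan4d, a gene first known from the embryo at the 2-cell stage and the most abundant of the family here, stood at 1.72, 0.904 and 1.1 TPM in wild type, 0.892, 0.991 and 1 in wild type with etoposide, 12.6, 10.4 and 10.6 in the knockout and 11.9, 12 and 9.07 in the knockout with etoposide. Its difference between untreated genotypes was 2.46 ± 0.14 (± SE, limma adjusted p = 5.68e-08).

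Zscan4a, listed by RefSeq as a transcribed pseudogene, stood at 1.03, 0.707 and 1.09 TPM in wild type, 0.79, 1.19 and 0.91 in wild type with etoposide, 11, 10.6 and 7.59 in the knockout and 11.8, 12.3 and 8.37 in the knockout with etoposide. Zscan4c, the member best known from embryonic stem cells, stood at 0.607, 0.619 and 0.728 TPM in wild type, 0.646, 0.576 and 0.94 in wild type with etoposide, 5.19, 5.69 and 5.04 in the knockout and 5.7, 5.79 and 5.86 in the knockout with etoposide. In both, the lowest knockout library was several times the highest wild-type library, and the differences in untreated cells were 2.45 ± 0.16 and 1.93 ± 0.098. The spread over knockout replicates was narrower for Zscan4c than for Zscan4a, for which replicate 3 was the lowest in both knockout groups.

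The other Zscan4 genes were lower in level. Zscan4b stood at 0.33, 0 and 0.267 TPM in wild type, 0.261, 0.242 and 0.55 in wild type with etoposide, 2.3, 2.54 and 1.5 in the knockout and 2.19, 1.37 and 1.57 in the knockout with etoposide. Zscan4f stood at 0.181, 0.282 and 0.569 TPM in wild type, 0.259, 0.373 and 0.258 in wild type with etoposide, 1.4, 1.75 and 2.38 in the knockout and 2.43, 2.03 and 1.49 in the knockout with etoposide. Their genotypes did not overlap either, with differences of 1.37 ± 0.18 and 1.08 ± 0.17 in untreated cells (limma adjusted p = 5.31e-05 and 2.09e-04), the latter being the lowest of the 27 that rose. By ratio of means, which does not use the pseudocount of 1, Zscan4f rose 5.36-fold and Zscan4d 9.02-fold.

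The Tcstv total was the highest of the family totals in the knockout when Eif1ad itself was left out, at 7.58, 9.47 and 7.32 TPM in wild type, 9.2, 5.9 and 8.59 in wild type with etoposide, 75.8, 73.6 and 64.9 in the knockout and 84.7, 79.2 and 72.9 in the knockout with etoposide. It was 8.8 ± 1.45 times higher in the untreated knockout. Tcstv2b, which alone made up 63.6% of the total in untreated wild type and 61.4% in the untreated knockout, stood at 4.49, 6.36 and 4.72 TPM in wild type, 6.82, 3.49 and 5.64 in wild type with etoposide, 46.6, 42.7 and 41.9 in the knockout and 54.3, 48.5 and 42.8 in the knockout with etoposide. Its log2 difference of 2.87 ± 0.17 in untreated cells (limma adjusted p = 1.02e-07) was the largest among the members, and the lowest knockout library, at 41.9 TPM, was far above the highest wild-type library, at 6.82 TPM.

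Tcstv2c stood at 1.59, 0.893 and 1.18 TPM in wild type, 1.47, 0.519 and 0.759 in wild type with etoposide, 10.6, 11.2 and 9.05 in the knockout and 12.5, 11 and 12.1 in the knockout with etoposide. Tcstv1b stood at 0.835, 0.536 and 0.943 TPM in wild type, 0.575, 0.426 and 0.965 in wild type with etoposide, 7.2, 7.84 and 4.79 in the knockout and 6.22, 8.94 and 6.97 in the knockout with etoposide. These 2 genes rose by 2.35 ± 0.17 and 2.09 ± 0.18. The untreated knockout libraries ran from 9.05 to 11.2 TPM for Tcstv2c and, more widely for their level, from 4.79 to 7.84 for Tcstv1b. Tcstv3 was more scattered, at 0.254, 0.593 and 0.342 TPM in wild type, 0.158, 0.683 and 0.426 in wild type with etoposide, 5.2, 1.98 and 3.29 in the knockout and 4.12, 4.28 and 4.18 in the knockout with etoposide, with the knockout libraries of untreated cells more than 2-fold apart. Tcstv2a stood at 0.294, 0.531 and 0 TPM in wild type, 0, 0.627 and 0.39 in wild type with etoposide, 2.63, 4.4 and 2.3 in the knockout and 3.28, 3.58 and 3.37 in the knockout with etoposide. Tcstv6 stood at 0, 0.336 and 0 TPM in wild type, 0, 0 and 0 in wild type with etoposide, 2.08, 3.24 and 1.58 in the knockout and 1.83, 1.54 and 2.01 in the knockout with etoposide, and was listed at 0 in 5 of the 6 wild-type libraries. The 3 genes rose by 1.63 ± 0.22, 1.68 ± 0.22 and 1.55 ± 0.18 in untreated cells.

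Of the 4 Tcstv genes below a mean of 1 TPM, none exceeded 1.43 TPM in any library. Without the filter, Tcstv4 rose by 0.77 ± 0.086 and Tcstv7a by 0.65 ± 0.21, the latter with an adjusted p of 0.043 (limma). Tcstv1a had all 3 untreated knockout libraries above wild type but did not pass (0.43 ± 0.16, limma adjusted p = 0.0698). Tcstv5 was listed at 0 in 10 libraries and did not pass (limma adjusted p = 0.506).

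**Figure D2:**
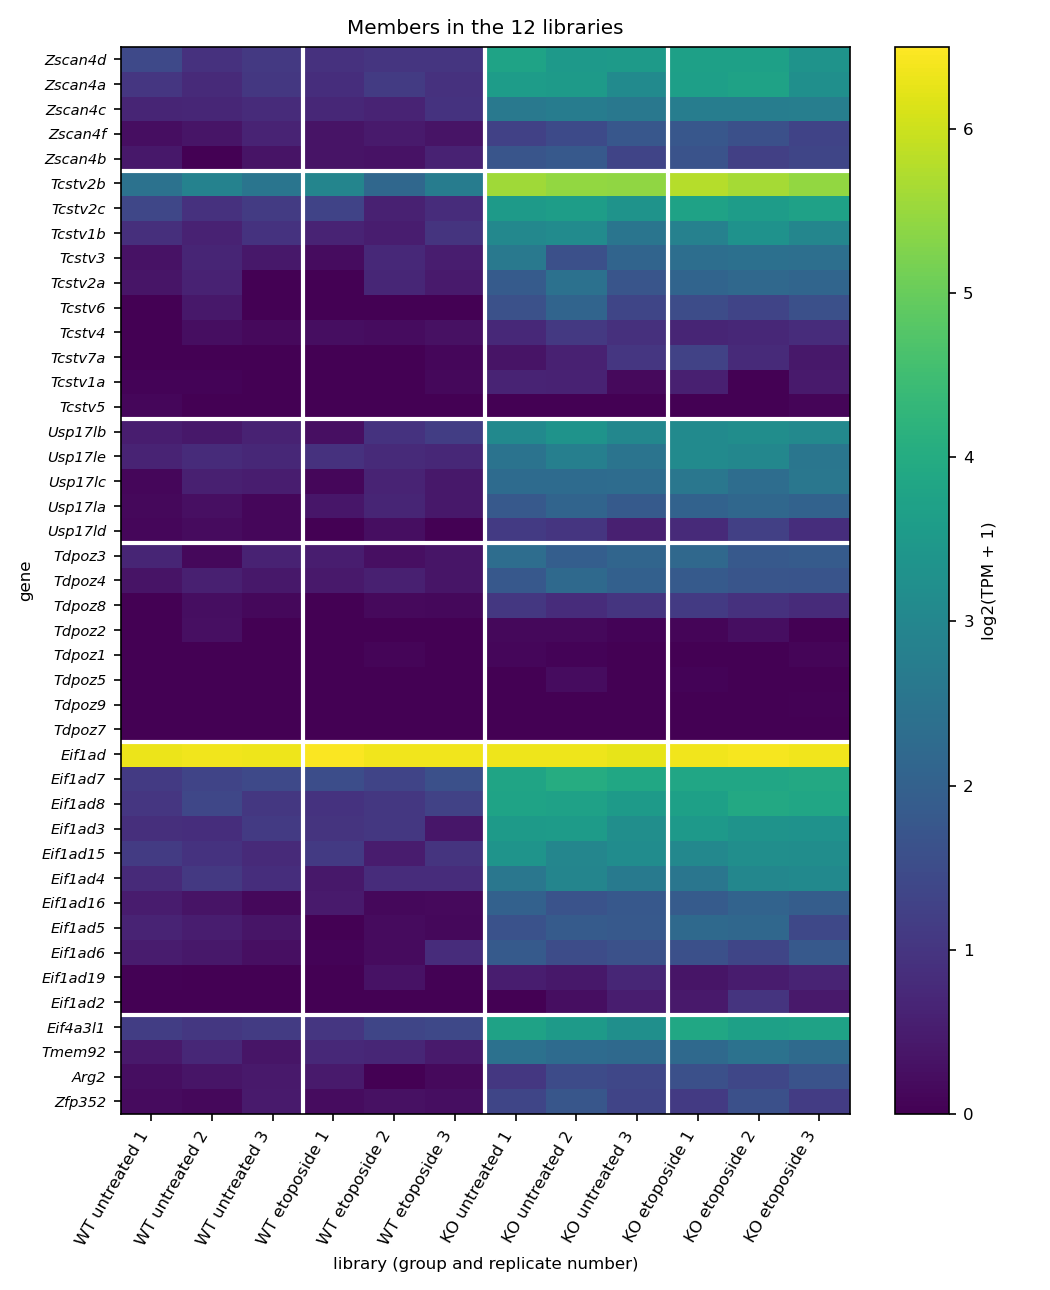
log2(TPM + 1) of all 43 members (rows, grouped by family) in the 12 libraries (columns, grouped by genotype and treatment), with colour cut at 6.5. The right-hand 6 columns, the knockout, are brighter in nearly every row, the treated and untreated blocks of a genotype look alike, and Eif1ad is bright throughout.

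The Usp17l total was 1.29, 1.89 and 1.78 TPM in wild type, 1.52, 2.94 and 2.6 in wild type with etoposide, 19.5, 23.1 and 18.9 in the knockout and 24, 24.2 and 21.1 in the knockout with etoposide. The untreated ratio of 12.4 ± 2.76 was the highest of the families, on wild-type totals under 2 TPM. Usp17lb, the marker of the family, stood at 0.439, 0.336 and 0.53 TPM in wild type, 0.209, 0.924 and 1.28 in wild type with etoposide, 7.42, 9.09 and 7.12 in the knockout and 7.67, 8.17 and 7.35 in the knockout with etoposide. It rose by 2.62 ± 0.19 in untreated cells (limma adjusted p = 3.78e-07), and its treated wild-type libraries were scattered from 0.209 to 1.28 TPM.

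Usp17le stood at 0.578, 0.733 and 0.65 TPM in wild type, 0.905, 0.696 and 0.658 in wild type with etoposide, 4.56, 5.93 and 4.7 in the knockout and 7.58, 7.09 and 4.84 in the knockout with etoposide. Usp17lc stood at 0.0802, 0.479 and 0.422 TPM in wild type, 0.09, 0.556 and 0.335 in wild type with etoposide, 3.81, 3.81 and 3.96 in the knockout and 4.92, 4.02 and 4.94 in the knockout with etoposide. Usp17la stood at 0.104, 0.203 and 0.0914 TPM in wild type, 0.319, 0.588 and 0.328 in wild type with etoposide, 2.5, 3.26 and 2.61 in the knockout and 3.1, 3.54 and 3.16 in the knockout with etoposide. All 3 had knockout libraries well above wild type, with untreated differences of 1.87 ± 0.14, 1.89 ± 0.15 and 1.74 ± 0.12. Usp17la had the largest ratio of means of the 27 genes, 21-fold, from a wild-type level of at most 0.203 TPM. Usp17ld, below the filter at 0.475 to 1.16 TPM in the untreated knockout and 0.0857 to 0.138 in untreated wild type, rose by 0.75 ± 0.15 without it (limma adjusted p = 0.00492).

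The Tdpoz total was the lowest, at 0.866, 0.964 and 0.98 TPM in wild type, 0.794, 0.855 and 0.69 in wild type with etoposide, 7.71, 7.55 and 7.37 in the knockout and 7.43, 5.9 and 5.69 in the knockout with etoposide, and was 8.05 ± 0.562 times higher in the untreated knockout. Tdpoz3 stood at 0.606, 0.0959 and 0.545 TPM in wild type, 0.429, 0.196 and 0.298 in wild type with etoposide, 3.98, 2.85 and 3.34 in the knockout and 3.58, 2.52 and 2.64 in the knockout with etoposide. Tdpoz4 stood at 0.26, 0.485 and 0.334 TPM in wild type, 0.365, 0.476 and 0.281 in wild type with etoposide, 2.49, 3.65 and 2.98 in the knockout and 2.59, 2.27 and 2.22 in the knockout with etoposide. These 2 genes and Tdpoz8, which had 0.763 to 1.06 TPM in the untreated knockout and at most 0.174 in untreated wild type, carried nearly all of the total. Differences in untreated cells were 1.64 ± 0.17 and 1.56 ± 0.13, and 0.83 ± 0.095 for Tdpoz8 without the filter (limma adjusted p = 1.31e-04). Tdpoz1, Tdpoz2, Tdpoz5, Tdpoz7 and Tdpoz9 never exceeded 0.209 TPM, and none passed the test in either comparison of genotypes.

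The rows whose names start with Eif1ad summed to 6.39, 7.02 and 6.02 TPM in wild type, 5.74, 5.47 and 6.5 in wild type with etoposide, 58.7, 59.2 and 53.9 in the knockout and 57.2, 61.8 and 59.97 in the knockout with etoposide when Eif1ad itself was left out, a split made after the values were seen. The numbered copies were 8.84 ± 0.824 times higher in the untreated knockout, whereas the total of all 11 genes rose 1.57-fold, from 86.2 to 136 TPM. Eif1ad, a gene expressed in many tissues, held 92.5% of that total in untreated wild type and 57.8% in the untreated knockout. It stood at 78.8, 80.5 and 79.9 TPM in wild type, 86.4, 81 and 81.5 in wild type with etoposide, 79.1, 79.8 and 75.9 in the knockout and 81.2, 84.1 and 81.6 in the knockout with etoposide. Its difference was −0.026 ± 0.032 (limma adjusted p = 0.523), the single one of the 28 that did not pass.

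Eif1ad7 stood at 1.17, 1.54 and 1.72 TPM in wild type, 1.88, 1.53 and 2.03 in wild type with etoposide, 12.8, 15.3 and 13.6 in the knockout and 13.5, 13.4 and 14.2 in the knockout with etoposide. Eif1ad8, the marker of the family, stood at 1.05, 1.6 and 1.07 TPM in wild type, 0.949, 1.06 and 1.42 in wild type with etoposide, 12.7, 12.2 and 10.7 in the knockout and 12.1, 14.2 and 13.4 in the knockout with etoposide. Eif1ad3 stood at 0.846, 0.791 and 1.14 TPM in wild type, 0.987, 1.06 and 0.311 in wild type with etoposide, 10.7, 10.9 and 8.21 in the knockout and 10.5, 9.2 and 8.9 in the knockout with etoposide. The 3 genes rose by 2.59 ± 0.10, 2.53 ± 0.12 and 2.5 ± 0.17, with limma adjusted p-values of 3.41e-09, 1.37e-08 and 2.12e-07, and the knockout replicates lay close together.

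Eif1ad15 stood at 1.2, 0.934 and 0.703 TPM in wild type, 1.15, 0.414 and 0.973 in wild type with etoposide, 9.36, 6.95 and 8.01 in the knockout and 7.25, 8.32 and 8.15 in the knockout with etoposide. Eif1ad4 stood at 0.721, 1.1 and 0.795 TPM in wild type, 0.331, 0.78 and 0.759 in wild type with etoposide, 5, 6.71 and 5.26 in the knockout and 4.89, 7.04 and 7.51 in the knockout with etoposide. Eif1ad16 stood at 0.418, 0.266 and 0.102 TPM in wild type, 0.395, 0.0972 and 0.122 in wild type with etoposide, 3.07, 2.18 and 2.47 in the knockout and 2.64, 3.16 and 2.77 in the knockout with etoposide. They followed the same order of genotypes without overlap, with untreated differences of 2.23 ± 0.16, 1.83 ± 0.17 and 1.5 ± 0.14. Eif1ad5 stood at 0.565, 0.446 and 0.299 TPM in wild type, 0, 0.141 and 0.0987 in wild type with etoposide, 2.1, 2.64 and 2.52 in the knockout and 3.68, 3.48 and 1.68 in the knockout with etoposide. Eif1ad6 stood at 0.416, 0.345 and 0.196 TPM in wild type, 0.0467, 0.139 and 0.763 in wild type with etoposide, 2.57, 1.84 and 2.07 in the knockout and 2, 1.57 and 2.52 in the knockout with etoposide. These last 2 had the smallest differences of the numbered copies that passed the filter, 1.25 ± 0.19 and 1.26 ± 0.19. Eif1ad19 was at most 0.613 TPM and rose by 0.53 ± 0.097 without the filter, while Eif1ad2 was listed at 0 in all 6 wild-type libraries and in 1 untreated knockout library, and did not pass there (0.26 ± 0.15, limma adjusted p = 0.283).

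Among the single genes, Eif4a3l1, a relative of the RNA helicase of the exon junction complex, stood at 1.26, 1.09 and 1.2 TPM in wild type, 1.03, 1.57 and 1.67 in wild type with etoposide, 12.3, 10.7 and 8.4 in the knockout and 13.6, 11.9 and 12.5 in the knockout with etoposide. Tmem92, a membrane protein gene often used to mark the state, stood at 0.357, 0.662 and 0.29 TPM in wild type, 0.692, 0.615 and 0.374 in wild type with etoposide, 4.41, 3.87 and 3.69 in the knockout and 3.68, 4.48 and 3.74 in the knockout with etoposide. They rose by 2.38 ± 0.13 and 1.80 ± 0.13 in untreated cells (limma adjusted p = 5.23e-08 and 4.14e-07). Arg2, the mitochondrial arginase, stood at 0.187, 0.297 and 0.363 TPM in wild type, 0.395, 0 and 0.123 in wild type with etoposide, 1.09, 1.78 and 1.63 in the knockout and 2.01, 1.61 and 2.18 in the knockout with etoposide. Zfp352, a zinc finger gene of the early embryo, stood at 0.142, 0.105 and 0.377 TPM in wild type, 0.153, 0.226 and 0.175 in wild type with etoposide, 1.56, 2.36 and 1.51 in the knockout and 1.14, 1.99 and 1.24 in the knockout with etoposide. Both fell below the filter on mean level and rose by 0.95 ± 0.14 and 1.21 ± 0.15 without it (limma adjusted p = 7.95e-04 and 2.34e-04), with no overlap of genotypes.

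Over the 27 members with a mean of at least 1 TPM other than Eif1ad, the ratio of group means in untreated cells ran from 5.36 in Zscan4f to 21.0 in Usp17la, with a median of 8.85 and quartiles of 8.28 and 10.5. Of these ratios, 24 lay between 5 and 15. Many of the 27 passed that filter through the knockout libraries, so the range does not hold for all members. Of the 15 members below the filter, 6 were listed at 0 in all untreated wild-type libraries and have no ratio. The other 9 ran from 0 in Tcstv5 and 1.19 in Tdpoz2 to 71.1 in Eif1ad19, on wild-type means under 0.3 TPM, and 6 of them lay between 5 and 15.

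The shares of single genes in the totals are given with no test. Shares of the same total depend on each other, so those that stand apart are not separate events. No share over all genes exists to set beside the counts below, and with 3 libraries per group some would stand apart by chance. In untreated cells the share overlapped between genotypes for all 5 Zscan4 and all 8 Tdpoz genes, and for all Tcstv genes but Tcstv7a, which was listed at 0 in wild type. Zscan4d held 36.6% of the Zscan4 total in untreated wild type (29.4% to 44.5% over libraries) and 37.2% in the untreated knockout (33.6% to 39.2%). In the Usp17l total 3 of 5 shares did not overlap. That of Usp17le was 40.0% in untreated wild type (36.5% to 44.8%) and 24.7% in the untreated knockout (23.4% to 25.7%). Usp17lb held 17.8% to 34.0% and 37.7% to 39.3%, and Usp17la 5.14% to 10.7% and 12.9% to 14.1%. Among the 10 numbered Eif1ad copies, the share of Eif1ad5 was lower in the untreated knockout, at 3.58% to 4.68% against 4.97% to 8.83%, and that of Eif1ad19 was higher, at 0.574% to 1.14% against 0 to 0.302%. With etoposide no Usp17l share stood apart, the Usp17le share being 23.6% to 59.4% in wild type and 23.0% to 31.6% in the knockout. There 2 Zscan4, 2 Tcstv, 1 Tdpoz and 3 numbered Eif1ad shares did not overlap. Of the numbered copies, Eif1ad5 was apart with and without etoposide, but with etoposide its share was higher in the knockout. Wild-type shares rest on single-gene levels that are mostly near or under 1 TPM.

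**Figure D3:**
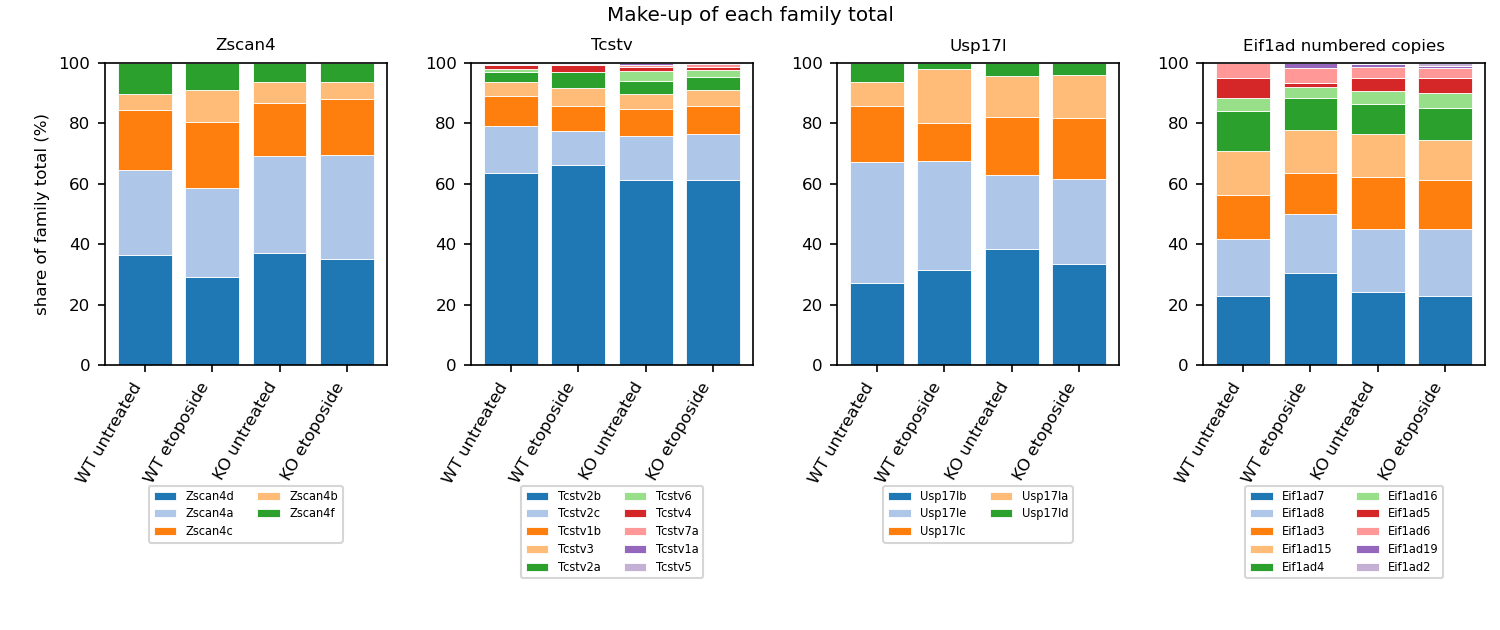
Mean share of each gene in the summed TPM of its family (percent, mean of 3 libraries), by group, for Zscan4, Tcstv, Usp17l and the numbered Eif1ad copies. Tcstv2b holds 61.3% or more of its family in every group, and the Usp17le share is smaller in the untreated knockout (24.7%) than in untreated wild type (40.0%).

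With etoposide present, the genotypes were compared in the same way. Each family was again higher in the knockout. The ratio of totals was 9.5 ± 1.76 for Zscan4, 9.996 ± 2.34 for Tcstv, 9.8 ± 3.17 for Usp17l, 8.13 ± 1.49 for Tdpoz and 10.1 ± 0.993 for the numbered Eif1ad copies (± SD, n = 3 libraries per group). All members but Eif1ad summed to 22.6 ± 1.72 TPM in wild type and 219 ± 11.9 in the knockout.

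With etoposide, 35 of the 43 genes had every knockout library above every wild-type library and 0 the reverse, against 18.1% and 16.1% of all genes. Without the filter 35 of 43 rose, where 11.3% of all genes rose and 11.1% fell, and with it 27 of 28 rose and 0 fell, against 22.5% and 21.7% of all genes. The median difference of the 28 was 2.03, beside 0.02 for all genes. Tcstv2b again had the largest, 3.00 ± 0.17 (limma adjusted p = 8.72e-08), and Zscan4b the smallest of those that rose, 1.00 ± 0.18 (limma adjusted p = 7.35e-04). Zscan4d, Usp17lb and Eif1ad8 rose by 2.60 ± 0.14, 2.32 ± 0.19 and 2.73 ± 0.12. Eif1ad again did not pass (−0.011 ± 0.032, limma adjusted p = 0.804). Eif1ad2, listed at 0 in treated wild type, had 0.355, 0.975 and 0.362 TPM in the treated knockout and passed here without the filter (0.62 ± 0.15, limma adjusted p = 0.014).

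**Figure D4:**
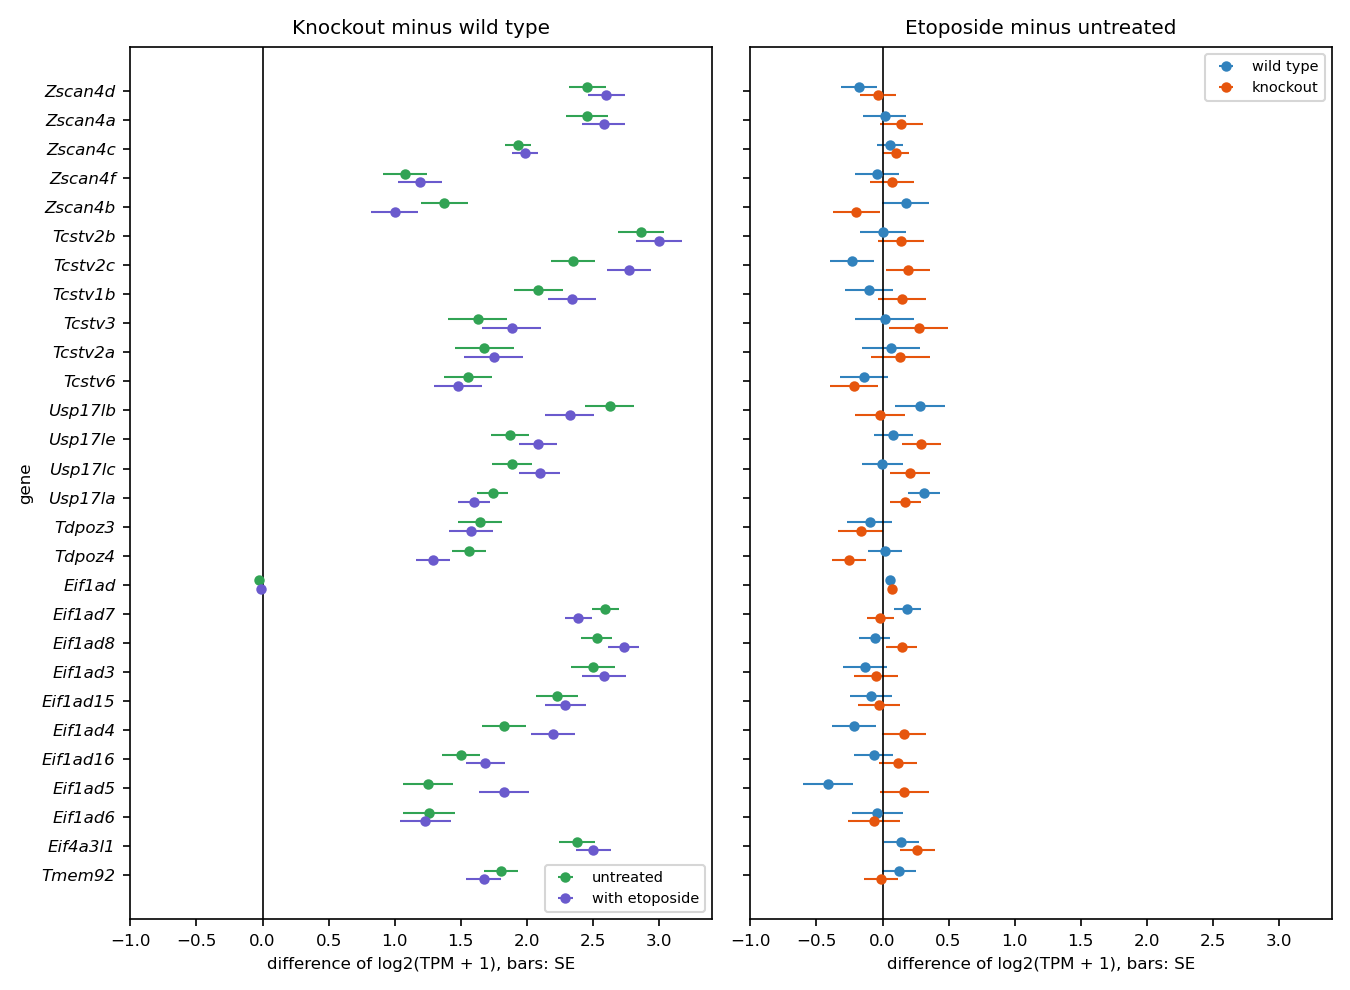
Differences of log2(TPM + 1) with SE (bars) for the 28 members with a mean of at least 1 TPM: knockout minus wild type without and with etoposide (left), and etoposide minus untreated in each genotype (right). On the left all members but Eif1ad lie between 1.00 and 3.00, and on the right all lie between −0.41 and 0.31.

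The next comparisons set etoposide against no treatment within a genotype. No member passed the test in either genotype, in a drug response in which 20.8% of all genes rose and 13.5% fell in wild type, and 14.5% rose and 10.5% fell in the knockout (limma, adjusted p under 0.05). At an unadjusted p under 0.05 there was 1 member in each, Usp17la in wild type (0.31 ± 0.12, limma adjusted p = 0.0638) and Eif1ad in the knockout (0.071 ± 0.032, limma adjusted p = 0.133). Without the filter 0 of 43 passed in either genotype, where 11.5% of all genes rose and 6.13% fell in wild type, and 7.84% rose and 4.53% fell in the knockout. The median differences of the 28 were 0.00 in wild type and 0.11 in the knockout, beside 0.02 and 0.00 for all genes.

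The totals of treated and untreated cells mostly overlapped. In wild type the treated total was 0.975 ± 0.249 times the untreated for Zscan4, 0.972 ± 0.258 for Tcstv and 0.911 ± 0.109 for the numbered Eif1ad copies, each with overlapping libraries. The Usp17l ratio was 1.42 ± 0.525, also with overlap. The Tdpoz total was lower in all 3 treated wild-type libraries than in the untreated ones, at a ratio of 0.832 ± 0.105, and no p is given for totals. In the knockout the ratios were 1.04 ± 0.17 for Zscan4, 1.11 ± 0.121 for Tcstv, 1.13 ± 0.152 for Usp17l, 0.841 ± 0.127 for Tdpoz and 1.04 ± 0.0668 for the numbered Eif1ad copies, and all 5 totals overlapped.

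By single genes, treated and untreated wild-type libraries did not overlap in 3 of the 43: Usp17la and Eif1ad were higher and Eif1ad5 was lower, against 18.9% and 11.2% of all genes. In the knockout Zscan4c, Usp17lc and Eif1ad were higher without overlap and none was lower, against 14.8% and 10.5%. Eif1ad5 was at 0.299 to 0.565 TPM in untreated wild type and at 0 to 0.141 in treated wild type (−0.41 ± 0.19, limma adjusted p = 0.118). It passed with a pseudocount of 0.1 and with quantile normalization, as did Usp17la with the former, so at these levels the call rests on the setting.

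The fifth comparison asked whether the drug's change differed between genotypes. It did not pass for any member, with the smallest limma adjusted p at 0.445, for Eif1ad5, and differences from −0.37 to 0.58. In this test 0.0709% of all genes were higher and 1.16% lower. None of the 28 had an unadjusted p under 0.05, and SEs of the members' interaction ran from 0.05 to 0.32, so small differences of response were not detectable.

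Regulators of the state moved in both directions, as did the genes tested as a whole. Of 44 named regulators, 42 were in the tables and 41 were tested: 12 rose and 14 fell in the untreated knockout, with a median of −0.01, where 28.1% of all genes rose and 21.5% fell. With etoposide 10 rose and 12 fell, beside 22.5% and 21.7% of all genes. Duxf3, a gene of the Dux family, was listed at 0 in all 3 untreated wild-type libraries and at 0.0081, 0.0414 and 0.0121 TPM in the untreated knockout, without overlap. With etoposide it was at 0.0089, 0.0357 and 0 TPM in wild type and 0.0188, 0 and 0 in the knockout, which overlap, and at these levels it was below the filter and not tested. Dppa2 fell slightly, from 71.2 ± 2.37 to 63.3 ± 3.54 TPM (−0.17 ± 0.046, limma adjusted p = 0.00864), while Dppa4 had 101 ± 1.63 and 106 ± 3.74 TPM and did not pass (limma adjusted p = 0.108). Under some of the alternative settings Dppa4 was called higher, so its call rests on the setting.

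The regulators with the lowest adjusted p among those that rose were Tet2, which oxidizes methylated cytosine (0.38 ± 0.044), Setdb1, a histone H3 methyltransferase of silent chromatin (0.16 ± 0.025), Rif1 (0.20 ± 0.035) and Nelfa, a subunit of the complex that pauses RNA polymerase (0.20 ± 0.039). Those that fell were Lin28a, an RNA-binding protein (−0.54 ± 0.037), Zmym2 (−0.27 ± 0.043), the histone demethylase Kdm1a (−0.12 ± 0.021) and Cbx3, an HP1 protein (−0.16 ± 0.030). The largest of these, Lin28a, went from 181 to 193 TPM in untreated wild type to 127 to 132 in the untreated knockout, a far smaller change than those of the families.

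Other genes known from the state were thinly covered, with 17 of 43 names in the tables and 7 tested. In the untreated knockout 4 rose and 1 fell, where 28.1% and 21.5% of all genes did. Gm4340, another multicopy gene, stood at 0.52, 2.12 and 2.52 TPM in wild type, 3.18, 1.79 and 2.04 in wild type with etoposide, 14.2, 23.3 and 13.1 in the knockout and 19.6, 16 and 25.4 in the knockout with etoposide, a difference of 2.76 ± 0.30 (limma adjusted p = 1.49e-05). Pramel7, a leucine-rich repeat protein of the embryo, rose by 0.96 ± 0.092 and Ddit4l, an inhibitor of mTOR signalling, by 1.05 ± 0.047, while Calcoco2 fell (−0.16 ± 0.026). With etoposide 5 of the 7 rose and none fell, where 22.5% and 21.7% of all genes did.

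Few other genes inside the spans were expressed enough to test. The single one among the Tcstv genes, LOC132475968, rose with them by 1.91 ± 0.19 in untreated cells (limma adjusted p = 5.48e-06). Among the Tdpoz genes, S100a10 fell (−0.38 ± 0.071) and S100a11 did not pass (−0.076 ± 0.034). Of 4 genes between the Usp17l copies, Trim12c and Trim6 fell (−0.48 ± 0.090 and −0.14 ± 0.031) and none rose. Trim34a and Trim34b did not pass (−0.34 ± 0.19 and −0.087 ± 0.12). With etoposide 3 of the 4 fell, all but Trim6. Over all genes 28.1% rose and 21.5% fell untreated, and 22.5% and 21.7% with etoposide. With so few genes in a span, the counts do not set the spans apart from other genes. No other gene inside the Zscan4 or Eif1ad spans passed the filter.

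Markers of other cell types and depth are given here because they could move with the genotypes. The summed level of 9 trophectoderm markers was 91.6 to 96.6 TPM in untreated wild type and 80.4 to 84.7 in the untreated knockout, and 89.7 to 94.0 and 74.9 to 80.03 with etoposide. Of the 7 trophectoderm genes tested, 1 rose and 2 fell untreated, and 2 rose and 2 fell with etoposide. Over all genes 28.1% rose and 21.5% fell untreated, and 22.5% rose and 21.7% fell with etoposide. The 10 germline markers summed to 54.8 to 57.9 TPM in untreated wild type and 55.5 to 59.2 in the untreated knockout, and to 52.3 to 55.7 and 54.3 to 59.3 with etoposide. Of the 8 tested, Taf7l, Slc25a31 and Ddx4 rose in the untreated knockout, by 0.82 ± 0.15, 0.66 ± 0.17 and 0.64 ± 0.12, and Sycp3 fell (−0.64 ± 0.12). With etoposide these 4 moved the same way and Mael rose too, by 0.38 ± 0.12 (limma adjusted p = 0.0178). These germline genes are named after their values were seen. The same shares of all genes apply to the germline counts. With so few genes tested, neither these counts nor the trophectoderm counts set the markers apart from other genes. Pluripotency markers summed to 8887 to 8891 TPM in untreated wild type and 8209 to 8340 in the untreated knockout, with 2 of 11 higher and 3 lower, beside 28.1% and 21.5% of all genes. With etoposide they summed to 8322 to 8633 TPM in wild type and 7776 to 8119 in the knockout, with 6 higher and 2 lower, beside 22.5% and 21.7%. The part of these differences in the result was not tested. Depth was lower in the untreated knockout, 5.23 to 6.51 gigabases, than in untreated wild type, 6.64 to 7.30, and with etoposide it was 6.88 to 7.76 in the knockout and 5.78 to 7.04 in wild type. The part of depth in the result was not tested.

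Replicate 3 was often the lowest library of the knockout groups. Untreated knockout replicate 3 had the lowest value of every family total, and treated knockout replicate 3 the lowest of the Zscan4, Tcstv, Usp17l and Tdpoz totals. They remained far above every wild-type library, and leaving out either of them left 27 of the 28 members higher in both comparisons of genotypes. Without treated knockout replicate 3, Usp17le and Eif1ad5 rose with etoposide in the knockout and Eif1ad5 fell in wild type. Without treated wild-type replicate 1, Usp17lb rose and Tcstv2c fell with etoposide in wild type.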

How the data were processed

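RNA of 12 mouse embryonic stem cell libraries, 3 in each of 4 groups, was measured per gene. Per the labels' protocols, poly(A) RNA was depleted of ribosomal RNA and made into strand-specific libraries. Per the submitters' processing notes, the tools were Trim Galore 0.6.6, cutadapt 3.4, HISAT2 2.2.1 and StringTie 2.2.1, on GRCm39. The TPM and FPKM values and the coverage (mean depth over each gene) were deposited by the authors, per the file headers. Coverage served only to work out depth. Whether counting used strand, and how reads with several matches were treated, is not given in the sources used here.

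Rows sharing a gene ID were summed, and family totals are sums of TPM by name prefix, given with no p. Values were taken as log2(TPM + 1) and tested with limma 3.58.1 (R 4.3.3, trended variance) over genes averaging 1 TPM or more, with 4 group means in 1 fit, 5 comparisons and Benjamini-Hochberg adjustment within each. The code was tested on simulated data. An adjusted p under 0.05 was called. All members could be named, and from the lists of regulators and other 2-cell genes Duxf3, Dppa2, Dppa4 and those with the lowest adjusted p in the untreated comparison. Genes named inside the chromosomal spans are all those tested there. The members and lists were chosen with earlier results of these data known. Alternatives were a pseudocount of 0.1, other filters, FPKM, other scalings, a replicate block, fits on the compared groups, a robust spread and leaving out each library. Sequences were compared with Biopython 1.88, and other work used Python 3.11.15.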

Additional observations from a re-analysis of the deposited data

Results flagged for a closer look

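In 2 genes known from the 2-cell-like state, neither a member of the families, the change with etoposide differed between genotypes by the test of the difference itself. Ddit4l rose with etoposide by 1.98 ± 0.05 in wild type and by 1.20 ± 0.05 in the knockout, a difference of −0.78 ± 0.07 on the log2(TPM + 1) scale (limma with Benjamini-Hochberg adjustment, adjusted p = 0.000177). Calcoco2 changed by −0.34 ± 0.03 in wild type and −0.11 ± 0.03 in the knockout, a difference of 0.23 ± 0.04 (limma, adjusted p = 0.00827). Both genes had been named for their low adjusted p between untreated genotypes. That difference enters this test, so the choice was not independent of the result. Knockout minus wild type was 1.05 untreated and 0.28 with etoposide for Ddit4l, and −0.16 and 0.07 for Calcoco2. In the test of the difference 0.0709% of all genes were higher and 1.16% lower. None of the 28 members tested showed a called difference of response between genotypes.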

How the results depend on the processing

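The 27 members called higher in each comparison of genotypes were called higher under every alternative that tested them, 554 of 554 combinations of gene and setting in each comparison, the largest limma adjusted p being 0.00221 untreated and 0.00637 with etoposide. The 27 had been picked by the main test, many passed its filter through the knockout libraries, and the alternatives reuse the same libraries. The count therefore shows only that the calls did not rest on the setting, and is no further evidence. With FPKM, whose values are lower so that the same filter kept fewer genes, 15 members were tested and 14 were higher in each comparison of genotypes. Etoposide in wild type gave 1 higher and 1 lower member with a pseudocount of 0.1 (Usp17la and Eif1ad5), 1 lower with quantile normalization (Eif1ad5), and 1 higher with the replicate number as a block (Usp17la, adjusted p = 0.0377). The replicate block changed no other count of members called. Deviations of same-numbered libraries correlated at r = −0.0449 to 0.0453 over 18 pairs of libraries, so the numbers were not taken to pair them. Leaving out each library in turn gave 0 to 1 higher and 0 to 1 lower members for etoposide in wild type and 0 to 2 higher in the knockout. The libraries concerned were treated wild-type replicate 1 and treated knockout replicate 3. The difference of Eif1ad between treated genotypes ran from −0.029 to 0.018 over the libraries left out, and was above 0 without treated wild-type replicate 1 (limma adjusted p = 0.701). Without Eif1ad, the Eif1ad total gave ratios of 8.84 untreated, 10.1 with etoposide and 0.911 for etoposide in wild type. The ratio of the numbered copies with etoposide was 11.2 without Eif1ad7. Ratios of the other totals moved by less than the spread between replicates under FPKM, median-of-ratios scaling, without the most abundant row and without each library. Depth is known only as aligned bases, so no counting interval is given.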
